A study of Mus musculus with 20 samples.

Results

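Among the H3K27me3 peaks of mouse cells on day 5 of reprogramming, 586 were present in wild-type (WT) and Jmjd3 knockout (KO) control cells and in KO cells overexpressing JMJD3, but had no overlapping peak in WT cells overexpressing JMJD3. These peaks, called here the peaks lost only in WT, were 586 of the 6428 peaks (9.12%) of the day 5 WT control list. They were chosen by the presence and absence of calls in the 4 day 5 H3K27me3 lists: a WT FLAG peak was taken if it overlapped a KO FLAG peak and a KO JMJD3 peak by at least 1 bp and no WT JMJD3 peak. In the whole WT FLAG list, 46.4% of the peaks had no overlapping WT JMJD3 peak and 63.1% overlapped a KO FLAG peak, and because the rule used these calls nothing is read from them. "Lost" means absent from a peak list, not a measured fall in the amount of the mark, since read numbers were not used here.

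The cells were mouse embryonic fibroblasts (MEFs), which are connective tissue cells, infected in medium with vitamin C with viruses for the reprogramming factors Oct4, Klf4, Sox2 and c-Myc, together abbreviated OSKM. In addition they received either FLAG alone as the control or Jmjd3, and they were collected as MEFs on day 0 (with no virus) and on days 5 and 10 of reprogramming. Also used was a day 5 list of FLAG-tagged JMJD3 positions from cells given less Klf4 virus, called low KLF4 here. By their labels the WT cells (Jmjd3+/+) were of strain C57BL/6J-OG2 and the KO cells (Jmjd3-/-) of strain C57Bl6J, so genotype and strain cannot be told apart. These labels differ from the paper, which describes littermate WT and KO MEFs lacking the OG2 reporter for its colony counts. The protocols name no sorting step, so that a call can mix cells at different stages. Each of the 14 peak lists, 10 of them for H3K27me3, came from 1 library, and no group had a replicate. Intervals below are therefore 95% intervals of counting error over peaks, neighbouring peaks are not independent, and no p-value was computed.

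H3K27me3 is trimethylation of lysine 27 of histone H3, which Polycomb repressive complex 2 places over silent developmental genes, often at CpG-rich promoters. JMJD3, encoded by Kdm6b, is a demethylase that removes this mark. During the first days of reprogramming fibroblasts shut down mesenchymal genes and switch on epithelial genes such as Cdh1, and KLF4 is the reprogramming factor best known for binding epithelial genes.

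The sequences below, which show KLF motifs and CpGs in some of these peaks, were read from the GRCm38 (mm10) reference on the plus strand. In the first set the capitals mark the KLF-type motif GGGNGTGG, or its reverse complement CCACNCCC, inside a KLF4 peak that lies in a peak lost only in WT. They are 80 bases each, and all lie outside annotated exons. They are the 6 peaks lost only in WT that have a gene within 5 kb and such a stretch inside the peak.
Comp, intron, chr8:70374634-70374713: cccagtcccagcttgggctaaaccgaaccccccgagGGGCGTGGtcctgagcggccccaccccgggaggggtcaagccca
Dpysl5, chr5:30713040-30713119: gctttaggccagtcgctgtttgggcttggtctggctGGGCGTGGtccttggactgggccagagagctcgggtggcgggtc
Tmem54, chr4:129105462-129105541: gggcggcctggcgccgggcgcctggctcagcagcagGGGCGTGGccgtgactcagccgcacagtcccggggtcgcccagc
Pitx3, chr19:46148344-46148423: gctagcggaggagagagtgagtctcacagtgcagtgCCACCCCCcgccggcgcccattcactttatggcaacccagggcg
Kcnh4, chr11:100759984-100760063: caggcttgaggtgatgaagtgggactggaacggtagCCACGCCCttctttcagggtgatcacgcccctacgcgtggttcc
Xkr4, chr1:3672058-3672137: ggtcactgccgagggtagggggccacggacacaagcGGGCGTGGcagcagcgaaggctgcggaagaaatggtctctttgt
In the second set, 120 bases near the centre of the peaks at Cdh1, St14, Cdkn1c and Tdh, the capitals mark CpG dinucleotides. The set is shown because the text describes these peaks, whose observed to expected CpG ratio over the whole peak was 0.654 at Cdh1, 0.743 at St14, 0.844 at Cdkn1c and 0.528 at Tdh. The stretches were moved out of exons, by 90 bp at St14 and 220 bp at Cdkn1c, so their CpG numbers are not comparable.
Cdh1, chr8:106603904-106604023: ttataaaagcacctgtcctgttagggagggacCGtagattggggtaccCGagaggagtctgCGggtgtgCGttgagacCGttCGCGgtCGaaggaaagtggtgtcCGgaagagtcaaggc
St14, chr9:31131425-31131544: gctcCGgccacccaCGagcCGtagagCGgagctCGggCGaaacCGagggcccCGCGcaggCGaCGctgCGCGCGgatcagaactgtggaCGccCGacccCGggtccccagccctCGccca
Cdkn1c, chr7:143459626-143459745: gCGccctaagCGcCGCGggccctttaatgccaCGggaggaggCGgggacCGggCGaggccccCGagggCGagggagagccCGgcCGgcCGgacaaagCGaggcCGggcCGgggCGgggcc
Tdh, chr14:63508274-63508393: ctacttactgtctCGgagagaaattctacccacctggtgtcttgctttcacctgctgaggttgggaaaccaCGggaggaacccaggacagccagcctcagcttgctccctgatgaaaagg

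Of the 4055 WT FLAG peaks that a KO FLAG peak overlapped, 2696 also had a peak in both JMJD3 lists (kept in both genotypes), 593 in neither (lost in both genotypes) and 180 only in the WT JMJD3 list (lost only in KO). The 586 peaks lost only in WT thus outnumbered the 180 of the opposite kind by 3.26 to 1. The WT JMJD3 list held 5064 peaks and the KO JMJD3 list 6539. When all 4 day 5 lists were reduced by score to 5064 peaks, 409 peaks were lost only in WT and 202 only in KO, a ratio of 2.02 to 1. All 409 of these were among the 586, while 89 of the 586 became lost in both genotypes and the other 88 left the shortened FLAG lists, 68 of them the WT list and 20 the KO list.

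The scores the authors' peak caller gave these peaks were moderate and are described here without a test, since the rule chose on these lists. Their scores in the WT FLAG list ran from 6.58 to 93.06 with a median of 15.0, at the 54.9th percentile of that list. Scores of different lists need not be on the same scale. The median was 12.7 in the KO FLAG list and 12.5 in the KO JMJD3 list. Peaks kept in both genotypes were much stronger in the WT FLAG list, with a median of 30.2, and peaks lost in both were weaker, with a median of 10.4. In the top quartile of WT FLAG scores there were 88 of the peaks lost only in WT and 1457 of those kept in both. The main comparisons of classes below are therefore given also as the mean of the differences within the 4 score quartiles.

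For 438 of the 586 peaks no WT JMJD3 peak lay within 5 kb, and for the others the absence was local. For 22 of the 586 peaks the nearest WT JMJD3 peak lay within 100 bp, for 82 (14.0%, 11.4 to 17.0) within 1 kb and for 148 (25.3%, 21.9 to 28.9) within 5 kb, and the median gap was 37073 bp. Of the peaks lost in both genotypes 11.8% had a WT JMJD3 peak within 5 kb, which is given as a description only, since the rule used the WT JMJD3 list. From the lowest to the highest score quartile, 13 of 82 peaks (15.9%, 9.51 to 25.3), 14 of 166 (8.43%, 5.09 to 13.7), 29 of 250 (11.6%, 8.2 to 16.2) and 26 of 88 (29.5%, 21 to 39.8) had one within 1 kb. The members were otherwise scattered, with 542 standing alone, 16 runs of 2 and 4 runs of 3 when members within 10 kb were joined.

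The peaks at the edge of the rule show how fine it is. Just inside it, an intronic peak at Htr3b, which encodes a serotonin receptor subunit, lay 3 bp from a WT JMJD3 peak, a peak upstream of Noto, a homeobox gene of the notochord, 8 bp, and a peak in an intron of Zfyve28 10 bp. Just outside it, a peak at Bend4 overlapped a WT JMJD3 peak by 10 bp, one at Hoxb8, a body-axis homeobox gene, by 11 bp, and one on chromosome 13 with no gene within 5 kb by 18 bp.

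Of the epithelial genes with a day 5 WT FLAG peak within 5 kb of a transcription start site (TSS), 2 of 21 had a peak lost only in WT: Cdh1, which encodes E-cadherin, and St14, which encodes the epithelial serine protease matriptase. This share, 9.52%, was near the 11.7% of all protein-coding genes with a WT FLAG peak. Of the same 21 genes 4 had a peak lost in both genotypes, 1 a peak lost only in KO and 12 a peak kept in both. The Cdh1 peak (chr8:106603464-106604463) lay in an intron with its centre 584 bp from the TSS. Its score was 94.56 in WT MEFs and 32.55 in KO MEFs. On day 5 it was 36.58 with WT FLAG, 31.35 with KO FLAG and 8.83 with KO JMJD3, and the nearest WT JMJD3 peak was 91022 bp away. On day 10 it was called only with KO FLAG, at 9.69. The day 5 calls of the Cdh1 peak follow from the rule, while those in both MEF lists and on day 10 do not. Its score lay at the 83.8th percentile of the KO FLAG list and at the 28.6th of the KO JMJD3 list.

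The St14 peak (chr9:31131075-31132074), over an exon 279 bp from the TSS, scored 80.29 in WT MEFs and 12.17 in KO MEFs. On day 5 it scored 39.96 with WT FLAG, 23.27 with KO FLAG and 7.89 with KO JMJD3. The last score was weak, at the 20.6th percentile of the KO JMJD3 list, whose lowest score was 6.59. On day 10 it was called only with WT FLAG, at 8.12. No WT JMJD3 peak lay within 5 kb of a TSS of either Cdh1 or St14. Lad1, which encodes the epithelial anchoring protein ladinin and was named for its score, had the second highest WT FLAG score of the 586, 82.41, with 51.94 in KO FLAG and 26.39 in KO JMJD3. Its peak, whose nearest WT JMJD3 peak lay 231077 bp away, was called on day 10 in both FLAG lists (13.98 in WT and 17.86 in KO) and in neither JMJD3 list.

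Of the pluripotency genes with a WT FLAG peak 4 of 16 had a peak lost only in WT, none had one lost in both genotypes or only in KO, and 11 had one kept in both. Over all 3186 protein-coding genes with a WT FLAG peak, 374 (11.7%) had a peak lost only in WT, 342 one lost in both, 96 one lost only in KO and 1827 one kept in both. Tdh encodes threonine dehydrogenase, an enzyme that pluripotent mouse cells rely on. Its intronic peak (chr14:63507834-63508833) scored 23.41 in WT MEFs, was not called in KO MEFs, and on day 5 scored 18.89 with WT FLAG, 11.87 with KO FLAG and 16.92 with KO JMJD3. Tdgf1 encodes Cripto, a co-receptor of Nodal. Its peak (chr9:110945975-110946974) scored 36.26 and 10.32 in WT and KO MEFs. On day 5 it scored 11.08 with WT FLAG, 13.47 with KO FLAG and 7.59 with KO JMJD3, near the lowest score of that list, 6.59. Neither of these peaks was called in any day 10 list, whatever the genotype.

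The other pluripotency genes, Sall1 and Tfap2c, both encode transcription factors and still had a WT JMJD3 peak close by. A WT JMJD3 peak lay 72 bp from the Sall1 peak and 99 bp from the Tfap2c peak, and within 5 kb of a TSS the WT JMJD3 list scored 14.34 at Sall1 and 33.1 at Tfap2c. On day 10 both peaks were called in both FLAG lists and in the KO JMJD3 list but not in the WT JMJD3 list, although that list had another peak within 5 kb of a TSS of Tfap2c, at 8.53, and none at Sall1. Sall1 then scored 9.94 with WT FLAG, 19.85 with KO FLAG and 9.21 with KO JMJD3, and Tfap2c scored 9.73, 7.77 and 10.83.

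Cdkn1c, which encodes the cell-cycle inhibitor p57, was 1 of the 2 CDK inhibitor genes with a WT FLAG peak. Its peak (chr7:143459406-143460405) was the third strongest, with 79.02 in WT FLAG, 49.69 in KO FLAG and 26.02 in KO JMJD3, and scored 29.05 and 19.69 in WT and KO MEFs. It was called again in all 4 day 10 lists, at 28.81 and 21.53 in WT FLAG and WT JMJD3 and at 28.32 and 45.88 in KO FLAG and KO JMJD3. At Thy1, which encodes a fibroblast surface protein and was 1 of 7 mesenchymal genes, the score was 17.92 in WT FLAG and 21.37 in KO FLAG. In KO JMJD3 it was 6.89, near the lowest score of that list, 6.59. On day 10 the Thy1 peak was called in the KO lists alone, at 17.7 with FLAG and 21.01 with JMJD3.

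The 10 protein-coding genes with the highest WT FLAG scores shared 9 peaks, and 5 of these 9 had a WT JMJD3 peak within 1 kb. Comp, a cartilage matrix gene, led with 93.06, and a WT JMJD3 peak lay 322 bp from it. A close WT JMJD3 peak was also found at Etv2, an ETS factor of blood and vessel precursors (73.59, gap 325 bp), Plxnc1, a semaphorin receptor (69.65, gap 135 bp), and Pth1r, the parathyroid hormone receptor (78.63, gap 803 bp). Besides Lad1 and Cdkn1c, the peaks of Nxph3, which encodes a neurexin ligand (59.8), and Col15a1, a basement membrane collagen (59.17), were far from any WT JMJD3 peak, with gaps of 138789 and 126437 bp.

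**Figure D1:**
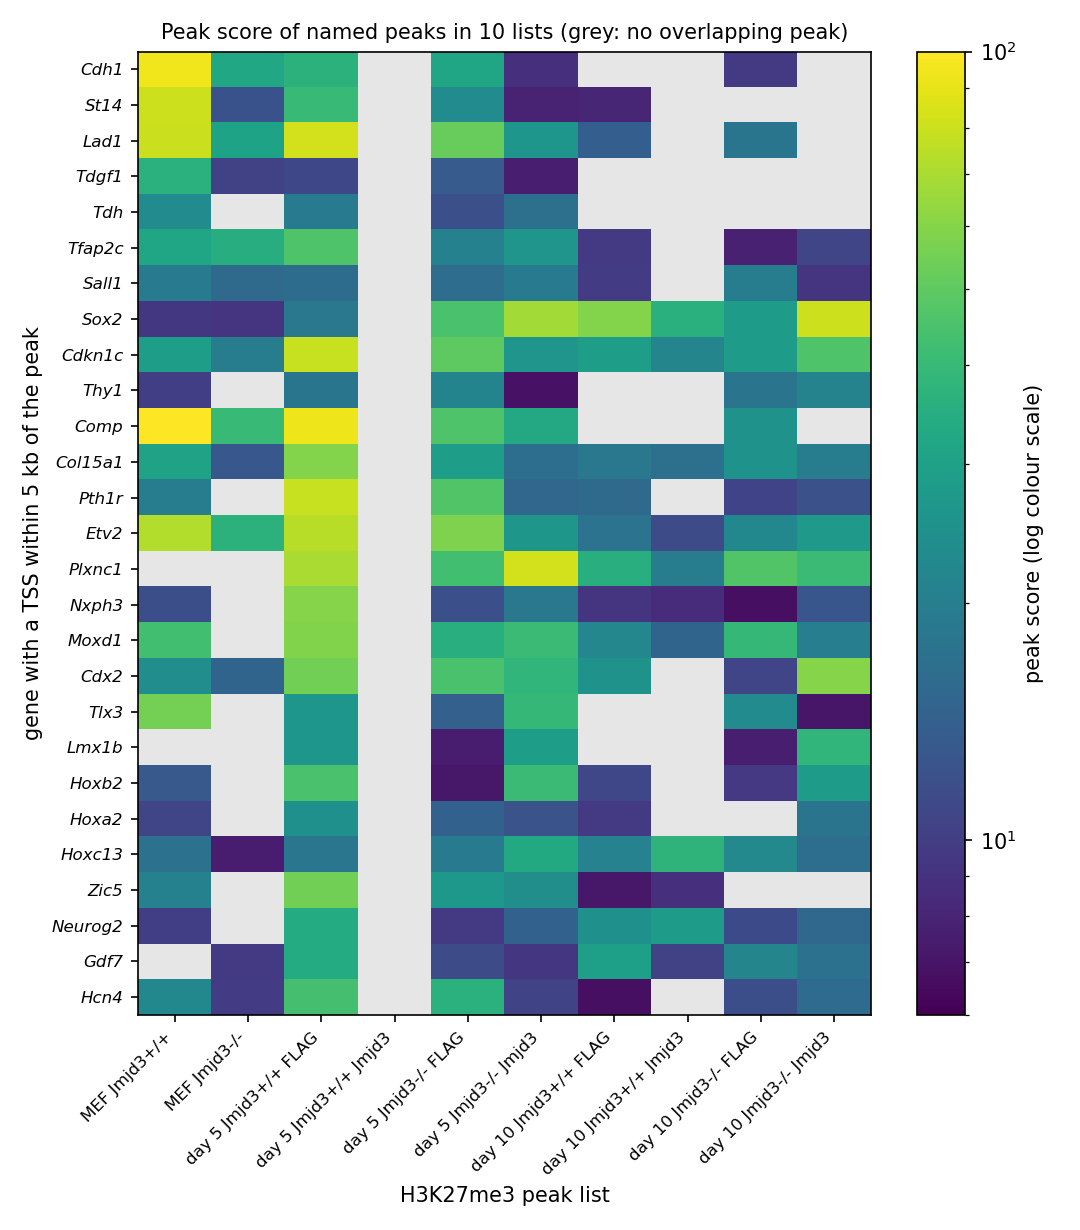
Peak score (colour, log scale) of 27 named peaks, 1 per row under a gene with a TSS within 5 kb, in the 10 H3K27me3 lists, 1 library each; grey marks a list with no overlapping peak. The grey day 5 Jmjd3+/+ Jmjd3 column is fixed by the rule, while in the day 10 columns Cdkn1c was called in all 4 lists and Tdh and Tdgf1 in none.

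Lists of developmental and neural genes are given beside the same 11.7% of all protein-coding genes. A peak lost only in WT was found at 7 of 35 Hox genes, 12 of 113 other homeobox genes, 9 of 54 Sox, T-box, forkhead and GATA genes, 15 of 75 lineage factors of the bHLH and zinc finger families, 4 of 71 genes of Wnt, BMP, FGF and hedgehog signalling, 9 of 64 axon guidance and adhesion genes, and 7 of 161 ion channel and neurotransmitter receptor genes. Hox genes at 20.0% and the bHLH and zinc finger factors at 20.0% stood above the value over all genes, and the channel and receptor genes at 4.35% and the signalling genes at 5.63% below it. No test was made of these counts, in which genes of a cluster share peaks.

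Within these lists many strong examples again had a close WT JMJD3 peak. Hoxb2, a hindbrain gene, scored 44.76 with WT FLAG, 7.22 with KO FLAG and 41.03 with KO JMJD3, and a WT JMJD3 peak lay 39 bp away. Cdx2, a factor of trophectoderm and gut, scored 55.08, 44.4 and 38.14 in the same order with a gap of 290 bp. Tlx3, which specifies sensory neurons, scored 26.27, 14.19 and 39.15 with a gap of 89 bp. Hoxa2 and Neurog2, a neuronal bHLH factor, stood further from a WT JMJD3 peak, at 24508 and 5440 bp. Hoxa2 scored 24.64 with WT FLAG, 14.38 with KO FLAG and 12.35 with KO JMJD3, and Neurog2 34.01, 9.69 and 14.31. Genes with 2 or more of the peaks within 5 kb of a TSS included Zic5, Bsx, Tbx20, Sox5 and Dmrt2, which encode developmental transcription factors, Gdnf, which encodes a neurotrophic factor, and Phactr1.

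KLF4 peaks, measured only in WT cells on day 5, were more frequent in the peaks lost only in WT than in the peaks kept in both genotypes, while the difference from the peaks lost in both was within counting error once scores were matched. In the list from FLAG cells 33 of the 586 peaks held a KLF4 peak (5.63%, 4.04 to 7.80) against 2.4% of all WT FLAG peaks. In the list from JMJD3 cells 58 did (9.90%, 7.73 to 12.6) against 4.51% of all, and in either list 61 did (10.4%, 8.19 to 13.1) against 4.84% of all. Of peaks kept in both genotypes 5.30% held one in either list, a difference of 5.11 percentage points (2.71 to 7.95), and within score quartiles the difference was 6.91 points (4.37 to 10.2). With score quartiles and day 5 lists of equal length together it was 4.51 points (-1.77 to 12.8), an interval that covers 0 and a setting chosen after seeing the data. Of peaks lost in both genotypes 6.24% did, a difference of 4.17 points (1.01 to 7.38) that was 4.03 points (-1.10 to 7.77) within score quartiles. In the 61 peaks the KLF4 peak was called in both lists in 30, only with JMJD3 in 28 (45.9%, 34 to 58.3) and only with FLAG in 3. Of all 311 WT FLAG peaks that held KLF4, 42.8% had it in both lists, 50.5% only with JMJD3 and 6.75% only with FLAG, so that the peaks lost only in WT were near the rest in this.

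The share with KLF4 was 2.44%, 3.61%, 13.2% and 22.7% from the lowest to the highest score quartile of the peaks lost only in WT, and 0.909%, 2.68%, 3.61% and 7.14% of those kept in both. In the peaks lost in both it was 5.42%, 7.47%, 4.97% and 8%, above the peaks lost only in WT in the lower score quartiles and below them in the upper ones. Among CpG-rich peaks 20.9% (15.6 to 27.4) of the peaks lost only in WT held KLF4, against 7.90% (6.52 to 9.54) of those kept in both and 19.7% (13.8 to 27.3) of those lost in both. Among peaks that were not CpG-rich the shares were 5.69% (3.82 to 8.4), 3.13% (2.36 to 4.15) and 2.39% (1.34 to 4.22) in the same order, with intervals that overlapped. Nearness to a WT JMJD3 peak moved with KLF4 as well: 18 of the 82 peaks with a WT JMJD3 peak within 1 kb held KLF4 (22%, 14.4 to 32.1), against 37 of the 438 with none within 5 kb (8.45%, 6.19 to 11.4). For those 438 the difference from peaks kept in both was 3.14 points (0.709 to 6.22). When peaks within 1 kb of each other counted as shared, the difference was 2.22 points (0.0605 to 4.88), and when overlaps of at least 50% of the peak were asked for, 2.21 points (0.0648 to 4.75).

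**Figure D2:**
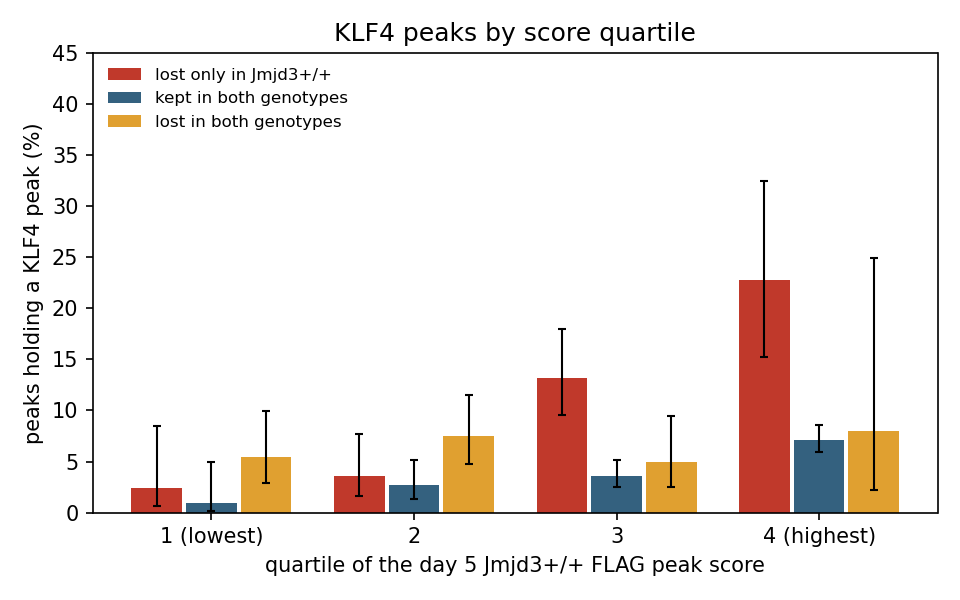
Share of peaks (y axis, percent) holding a KLF4 peak of either list, by quartile of the day 5 Jmjd3+/+ FLAG score, for 3 classes of day 5 peaks; bars are shares over peaks and error bars 95% Wilson intervals. In the highest quartile the share was 22.7% of the peaks lost only in Jmjd3+/+ cells and 7.14% of those kept in both genotypes, and the peaks lost in both numbered only 25 there.

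In a wider window the difference from the peaks lost in both genotypes was not seen. A KLF4 peak lay within 5 kb of the centre of 26.6% (23.2 to 30.3) of the peaks lost only in WT, of 27.8% of those lost in both and of 17.2% of those kept in both. The difference from the first was -1.20 points (-6.27 to 3.88) and from the second 9.45 points (5.73 to 13.4). The KLF4 peaks of JMJD3 cells clustered at the centres, with 40 and 35 in the bins of 1 kb on either side of the centre of the 586 peaks.

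**Figure D3:**
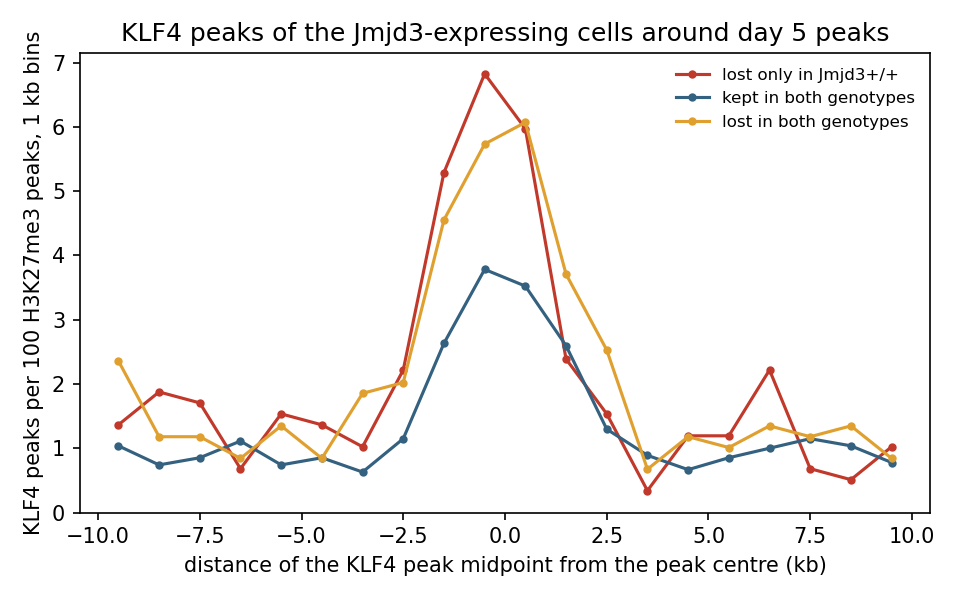
KLF4 peaks of the day 5 Jmjd3+/+ Jmjd3 cells per 100 H3K27me3 peaks (y axis), in 1 kb bins by distance of the KLF4 midpoint from the H3K27me3 peak centre (x axis, kb), for 3 classes; lines join bin values, with no error shown. The peaks lost only in Jmjd3+/+ cells reached 6.83 per 100 just left of the centre, near the 5.73 of the peaks lost in both and above the 3.78 of those kept in both.

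The strongest KLF4-holding peaks were those of Comp and Etv2, called for KLF4 in both lists, and of Lad1, Cdkn1c, Nxph3, Moxd1, Igdcc3 and Zic5, called with JMJD3 only. Elavl2, which encodes a neuronal RNA-binding protein, was 1 of the 3 called with FLAG only. At Comp the KLF4 interval of FLAG cells covered chr8:70374525-70374897 and its middle lay 53 bp from the centre of the H3K27me3 peak, and the motif shown above lay 37 bp from that middle. Of the 9 highest-scoring peaks, chosen by score, 5 held KLF4. In the highest score quartile 22.7% of the peaks lost only in WT and 7.14% of those kept in both did. Among the epithelial, pluripotency and mesenchymal genes with a peak lost only in WT, St14 alone held a KLF4 peak, with JMJD3 only, and Cdh1, Tdh, Tdgf1, Sall1, Tfap2c and Thy1 held none. This counts only KLF4 peaks that overlapped the H3K27me3 peak, not KLF4 elsewhere at these genes. The paper reports more KLF4 binding with JMJD3 at loci that include Cdh1, Sall1 and Tdh.

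The motif GGGNGTGG or its reverse complement was present within 200 bp around the middle of 11 of the 58 KLF4 peaks of JMJD3 cells that overlapped a peak lost only in WT (19.0%, 10.9 to 30.9). It was present in 31 of 137 at peaks kept in both (22.6%, 16.4 to 30.3) and in 33.6% (32.8 to 34.4) of all 14391 KLF4 peaks of that list. In 200 bp at the centre of the peaks lost only in WT that held no KLF4 peak it was present in 65 of 525 (12.4%, 9.83 to 15.5), and of all WT FLAG peaks in 10.1%. KLF4 peaks at the peaks lost only in WT therefore carried this motif less often than the whole KLF4 list, with intervals that did not overlap. The same held for KLF4 peaks at the peaks kept in both, so the lower share is not particular to the peaks lost only in WT.

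Positions of FLAG-tagged JMJD3 itself were rare. In the day 5 lists of WT cells with OSKM or with low KLF4, a JMJD3 position fell in 5 of the 586 peaks (0.853%, 0.365 to 1.98), against 0.7% of all WT FLAG peaks, 0.519% of those kept in both and 2.19% of those lost in both. The difference from peaks kept in both was 0.334 points (-0.267 to 1.48), and that from peaks lost in both was -1.34 points (-2.94 to 0.109). The difference from peaks kept in both was 3.70 points (1.45 to 6.42) for positions within 5 kb of the centre and 1.15 points (0.136 to 3.07) with the better-scoring 50% of each list, intervals that leave out 0. All 5 also held a KLF4 peak, as did 24 of the 45 WT FLAG peaks with a JMJD3 position (53.3%), 6 of the 14 kept in both and 6 of the 13 lost in both. They lay at Zic5, a zinc finger gene of the neural plate, at Cnpy1, at Sox2 and at a pair of places with no TSS within 5 kb, on chromosomes 2 and 19. The Sox2 peak covers an exon of a gene that the OSKM viruses also carried. Its KLF4 intervals were 948 and 1032 bp wide, where the median over the 91 KLF4 intervals at these peaks was 300.0 bp, and it was the 1 peak with a JMJD3 position also at low KLF4. The part of reads from the viral copy was not tested.

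The shares of the peaks lost only in WT near a TSS and rich in CpG lay between those of peaks kept in both and peaks lost in both, an order that these shares did not keep within score quartiles. A TSS lay within 5 kb of the centre of 69.1% of them, against 61.7% of all WT FLAG peaks, 76.0% of those kept in both and 66.4% of those lost in both. Within score quartiles the difference from those kept in both was -2.35 points (-7.32 to 2.41), and that from those lost in both was -5.22 points (-10.6 to 1.39), where the plain difference was 2.67 points (-2.66 to 7.98). CpG-rich peaks (at least 50% G and C and an observed to expected CpG ratio of at least 0.6) made up 31.1%, against 28.2% of all, 45.5% of those kept in both and 22.3% of those lost in both, and the peaks lost only in KO had the lowest shares of the 4 classes on both counts, 61.1% and 18.3%. Within score quartiles the CpG-rich share differed from that of the peaks kept in both by 1.51 points (-2.68 to 5.76), where the plain difference was -14.5 points (-18.6 to -10.2). From that of the peaks lost in both it differed by 5.26 points (-1.22 to 11.5), where the plain difference was 8.80 points (3.75 to 13.8). The centre lay in an exon in 143 peaks (24.4%), in an intron in 255 (43.5%) and between genes in 188 (32.1%), near the 22.9%, 43.1% and 33.9% of all WT FLAG peaks.

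In MEFs before infection 382 of the 586 peaks (65.2%, 61.2 to 68.9) were called in WT cells, against 59.9% of all WT FLAG peaks, and 241 (41.1%, 37.2 to 45.2) in KO cells, against 41% of all. They were called in both lists in 214 cases (36.5%), in WT alone in 168 (28.7%), in KO alone in 27 (4.61%) and in neither in 177 (30.2%), against 37.7%, 22.2%, 3.3% and 36.8% of all WT FLAG peaks. The KO MEF list was the shorter, with 4113 peaks against 6954. Compared with peaks kept in both the WT MEF share was 21.6 points lower (17.6 to 25.7), and 14.3 points lower (9.55 to 19.2) within score quartiles. Compared with peaks lost in both it was 15.8 points higher (10.1 to 21.3), and 12.2 points higher (5.63 to 19.1) within score quartiles.

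By day 10 a peak was called at 312 of the 586 places (53.2%, 49.2 to 57.2) in WT FLAG cells, against 52.1% of all day 5 WT FLAG peaks. In WT JMJD3 cells 156 were called (26.6%, 23.2 to 30.3), against 35% of all. In KO FLAG cells 356 were called (60.8%, 56.7 to 64.6), against 55% of all, and in KO JMJD3 cells 286 (48.8%, 44.8 to 52.8), against 50.4% of all. Peaks kept in both were called more often in each of these lists, by 28.0, 36.3, 23.6 and 33.4 points in the same order. Within score quartiles they were called more often by 14.9 points (9.94 to 19.8) with WT FLAG, by 22.5 (17.6 to 27) with WT JMJD3, by 13 (8.06 to 18) with KO FLAG and by 23 (17.8 to 27.9) with KO JMJD3. Peaks lost in both were called less often, in 33.7%, 12%, 42.3% and 25.6%, and within score quartiles less often by 8.90 points (2.83 to 15.8), 13.1 (6.81 to 18.4), 12.2 (5.62 to 19.1) and 15 (8.37 to 21.9). Peaks lost only in KO gave 48.3%, 24.4%, 54.4% and 38.9%, and 63.3% in WT MEFs and 37.2% in KO MEFs. The peaks lost only in WT differed from them by 4.91 points (-3.40 to 13.1), 2.18 (-5.41 to 8.99), 6.31 (-1.85 to 14.6) and 9.92 (1.59 to 17.8) on day 10, and the last of these was 7.35 points (-2.15 to 16.9) within score quartiles. The MEF differences were 1.85 points (-5.91 to 10) in WT and 3.90 (-4.34 to 11.7) in KO. These shares are therefore not particular to the peaks lost only in WT. The WT JMJD3 list, the shortest of the day 10 lists at 3045 peaks, held the fewest.

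**Figure D4:**
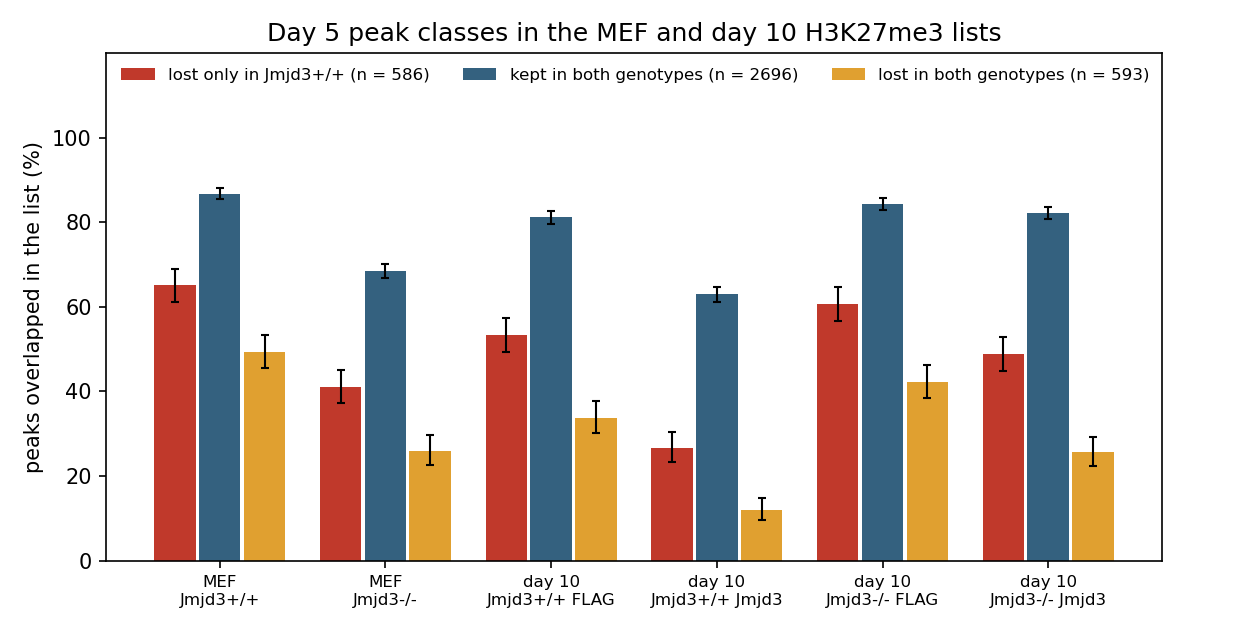
Share of day 5 peaks (y axis, percent) that overlapped a peak in the 6 H3K27me3 lists the selection did not use, for 3 classes; bars are shares over peaks and error bars 95% Wilson intervals, with 1 library per list. The peaks lost only in Jmjd3+/+ cells sat between the other classes plotted in every list, from 26.6% in the day 10 Jmjd3+/+ Jmjd3 list to 65.2% in Jmjd3+/+ MEFs.

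Of the 312 peaks called on day 10 in WT FLAG cells, 200 (64.1%, 58.6 to 69.2) were not called in WT JMJD3 cells of the same day, against 44.2% of all day 5 WT FLAG peaks called there. Of the 356 called in KO FLAG cells, 144 (40.4%, 35.5 to 45.6) were not called in KO JMJD3 cells, against 27.1% of all. The peaks kept in both on day 5 gave 30.3% in WT and 12.7% in KO, so that the peaks lost only in WT exceeded them by 33.8 points (28.0 to 39.3) in WT and by 27.8 points (22.6 to 33.1) in KO. Within score quartiles these differences were 24.3 points (16.4 to 30.6) and 20.6 points (13.8 to 27.1). They were below the peaks lost in both by 13.4 points (5.30 to 21) in WT and 21.3 points (13.3 to 28.9) in KO, and within score quartiles by 10 points (0.590 to 18.5) and 12.8 points (4.00 to 22.1). The day 10 list fell from 5131 peaks with FLAG to 3045 with JMJD3 in WT, and from 5376 to 4878 in KO, and the WT share was the higher in every class, including the peaks lost only in KO on day 5, at 69.0% in WT and 54.1% in KO.

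**Figure D5:**
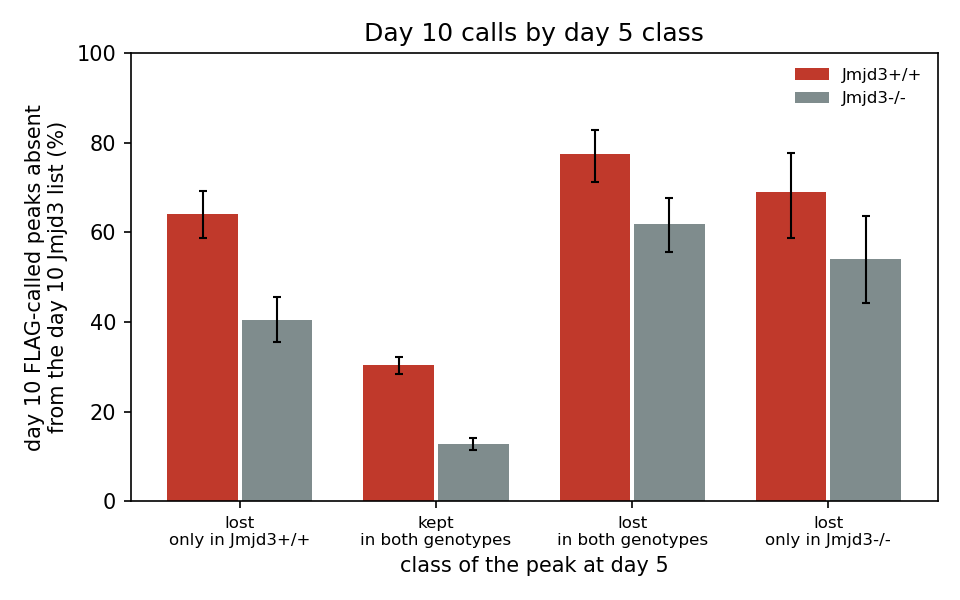
Share of peaks (y axis, percent) called on day 10 with FLAG that had no peak with Jmjd3 on the same day, by genotype and by day 5 class; bars are shares over peaks and error bars 95% Wilson intervals, with 1 library per list. The share was 64.1% in Jmjd3+/+ and 40.4% in Jmjd3-/- cells for the peaks lost only in Jmjd3+/+ cells on day 5, and it was higher in Jmjd3+/+ cells for all 4 classes.

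The rule was then repeated on the 4 day 10 lists. Of the 586 peaks 241 (41.1%) were called in both day 10 FLAG lists, near the 41.6% of all day 5 WT FLAG peaks. Of these, 85 were again lost only in WT (35.3%, 29.5 to 41.5), 84 were kept in both (34.9%), 58 were lost in both (24.1%) and 14 were lost only in KO (5.81%). Of all day 5 WT FLAG peaks called in both day 10 FLAG lists, 23.9% were lost only in WT on day 10, 59.1% kept in both, 13.1% lost in both and 3.85% lost only in KO. The share was 21.2% for peaks kept in both on day 5, 14.0 points lower (7.99 to 20.5), and 31.6% for peaks lost in both, a difference of 3.69 points (-6.43 to 13.3). It was 24.6% for peaks lost only in KO on day 5, a difference of 10.7 points (-3.09 to 21.9). Within score quartiles, the smallest of which held 6 of the peaks lost only in KO, the differences were 8.55 points (0.387 to 17.9) from peaks kept in both, 2.38 (-9.35 to 13.9) from those lost in both and 16 (-0.519 to 26.6) from those lost only in KO. The other kinds of loss on day 10 were also more frequent than at peaks kept in both, by 18.2 points (13.1 to 24.1) for loss in both and 3.22 points (0.767 to 6.97) for loss only in KO. Within score quartiles these differences were 12.5 points (4.60 to 21.4) and 1.38 points (-2.81 to 8.77). The excess over peaks kept in both was thus not particular to loss in WT alone, and the differences in loss in WT alone from the other lost classes were within counting error.

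Of the 586 peaks 110 (18.8%, 15.8 to 22.1) were absent from every day 10 list, against 27.7% of all day 5 WT FLAG peaks. These included Tdh and Tdgf1. The strongest with a TSS within 5 kb lay at Fignl2 (41.46 in WT FLAG on day 5, with another place near its TSS called in the day 10 WT JMJD3 list at 9.1), Fam222a (39.71), Pllp, which encodes a myelin membrane protein (37.26), Cys1, a gene of the primary cilium (30.63), and Hist3h2ba, a histone gene (29.9), and a peak on chromosome 13 with no TSS within 5 kb scored 37.57. At the other end 84 peaks (14.3%, 11.7 to 17.4) were called in all 4 lists, against 24.6% of all, among them those of Cdkn1c, Etv2, Plxnc1 and Nxph3. Of the 61 peaks with KLF4, 42 were called on day 10 with WT FLAG (68.9%, 56.4 to 79.1), 21 with WT JMJD3 (34.4%, 23.7 to 47), 44 with KO FLAG (72.1%, 59.8 to 81.8) and 31 with KO JMJD3 (50.8%, 38.6 to 62.9), where all day 5 WT FLAG peaks gave 52.1%, 35%, 55% and 50.4%. These 61 were strong peaks, with 33 in the third score quartile and 20 in the highest. In the third quartile all peaks lost only in WT gave 63.6%, 31.2%, 67.2% and 55.2% in the same order. In the highest they gave 75%, 40.9%, 78.4% and 65.9%. At Comp, which holds KLF4, this peak was called on day 10 with KO FLAG alone, at 25.17, but within 5 kb of the Comp TSS all 4 day 10 lists had a peak, at 21.67 in WT FLAG, 28.51 in WT JMJD3 and 29.04 in KO JMJD3.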

How the data were processed

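H3K27me3, KLF4 and FLAG-JMJD3 ChIP-seq peak lists were used as the authors deposited them, and the input and H3K27ac samples were not used here. Per the study's methods, reads were aligned to mm10 with bowtie2, and H3K27me3 peaks were called per library with DFilter and the others with MACS2. A Drosophila spike-in was added, and the methods state that mouse H3K27me3 reads were scaled by the number of mapped Drosophila reads, without saying whether the scaled reads entered the peak calls. The deposited H3K27me3 lists hold 1000 bp intervals with a score from 6.56 to 200 on an unstated scale. Scores were used to rank peaks within a list and are printed as given for named peaks, where values of different lists need not be comparable. Where several peaks overlapped, the highest score was given. The deposited KLF4 lists hold intervals and the JMJD3 lists 1 bp positions, in other units than counts. Read depth is not part of the lists, and a deeper library can hold more peaks.

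Overlaps of at least 1 bp were counted. Intervals were those of Wilson for a share and of Newcombe for a difference, with their limits combined by squares for a mean over 4 score quartiles. TSSs were from GENCODE M21 basic and sequence from GRCm38.p6. Groups came from the sample labels. The class assignment and intervals were tested on simulated data. Python 3.11.15, numpy 2.4.6, pysam 0.24.0 and samtools 1.23.1 were used.

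The members, the gene lists and the comparisons were chosen with earlier results of these data known. Named genes were those of the epithelial, pluripotency, CDK inhibitor and mesenchymal lists with a member, the 10 protein-coding genes of highest WT FLAG score, the leading genes of the other lists, KLF4-holding genes, peaks at the edge of the rule and the leading peaks called in all or no day 10 lists. Genes with 2 or more members are also in that rule and are not all described. Dpysl5, Tmem54, Pitx3, Kcnh4 and Xkr4 were shown for their motif, after their values were seen. Of the genes so named, 1 is not reported here.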

Additional observations from a re-analysis of the deposited data

How the results depend on the processing

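Values here are the differences in percentage points between the peaks lost only in WT and those kept in both genotypes, unless another comparison is named. Their intervals cover counting error over peaks of 1 library per group. What depth limits was not tested, since the read numbers that the paper supplies for H3K27me3 were not used. No paired analysis was possible because the labels give no replicate numbers. The better-scoring 50% of each list left 363 peaks lost only in WT and 73 lost only in KO. With those lists the day 10 WT FLAG difference was -20.8, the KLF4 difference 8.42, the TSS difference -1.52 and the difference from peaks lost in both in having a WT JMJD3 peak within 5 kb, a description from a list the rule used, 7.80. Asking for an overlap of at least 50% gave -20.3, -30.4, -17.7 and -25 for the day 10 WT FLAG, WT JMJD3, KO FLAG and KO JMJD3 differences, -21 for KO MEFs, 2.21 for KLF4 and -10.1 for CpG-rich peaks. Counting peaks within 1 kb as shared gave 2.22 for KLF4. Within score quartiles the 4 day 10 differences were -14.9, -22.5, -13 and -23, the MEF differences -14.3 in WT and -14.8 in KO, the TSS difference -2.35 and the CpG-rich difference 1.51, which turned its direction. Against the peaks lost in both genotypes the direction turned for the 4 day 10 differences, at 19.5, 14.6, 18.4 and 23.2, for MEFs, at 15.8 in WT and 15.2 in KO, for TSSs, at 2.67, and for CpG-rich peaks, at 8.80, and the JMJD3 position difference was -1.34. With sites within 5 kb of the centre the KLF4 difference was 9.45 and the JMJD3 difference 3.70. Equal list lengths, autosomes only, and other TSS rules moved no difference out of its interval, nor did, for KLF4 and the WT day 10 lists, leaving out peaks with a WT JMJD3 peak within 5 kb. That last setting, and equal list lengths together with score quartiles, which gave 4.51 (-1.77 to 12.8) for KLF4, were chosen after seeing the data. The cause of these shifts was not tested.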
